A study of Mus musculus with 8 samples.

Results

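Nuclear RNA of mouse embryonic stem cells carrying a conditional knockout (cKO) of Mettl14 was compared with that of Mettl14 control cells. The comparison uses 4 of the 8 libraries of the series, chosen by title: 2 of Mettl14 cKO and 2 of Mettl14 control. The remaining libraries, 2 of Mettl3 cKO and 2 of Mettl3 control, serve only to test where a change differs from the one in the other knockout, and the 2 contrasts share no control library. All groups were C57BL/6 cells cultured with 15% serum, LIF at 1000 U/ml (a cytokine that sustains self-renewal), the GSK3 inhibitor CHIR99021 at 3 µM and the MEK inhibitor PD0325901 at 1 µM. RNA was taken from the nuclear fraction with Trizol, ribosomal RNA was removed with RiboMinus, and stranded total RNA libraries were made with the SMARTer kit. The sources used here do not give the exons removed, the driver of the deletion, the time after it or the number of clones. Whether the 2 libraries of a group came from separate cultures is not labelled either. The p-values thus reflect only the spread between such libraries, pooled in part over genes, and this spread may be technical.

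METTL14 and METTL3 form the core of the enzyme complex that places N6-methyladenosine (m6A) on nascent RNA. METTL3 carries the catalytic site, and METTL14 holds the RNA substrate and stabilises its partner. The mark is read by YTH-domain and other proteins that act on splicing, export and decay, and in embryonic stem cells it is known for shortening the life of mRNAs of pluripotency factors. The title of the series places METTL14 in chromatin regulation apart from that mark, so transcripts of chromatin regulators were described along with those of RNA processing, signalling, metabolism and the extracellular matrix.

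Mettl14 itself (chr3:123368297-123386108, minus strand, mm10, GENCODE M21) was at 51.8 and 48.8 CPM (counts scaled to library size) in the control libraries and at 25.4 and 27.5 CPM in the cKO libraries. The groups did not overlap, and about the level left in cKO nothing can be said of protein, since a count over the whole gene does not show which exons it holds. The log2 fold change, cKO minus control, was -0.92 ± 0.06 (SE, n = 2 against 2; Benjamini-Hochberg adjusted p = 1.61e-25 by the edgeR quasi-likelihood test). Mettl3, its catalytic partner, was at 35.7 and 38.8 CPM in control and 37.2 and 40.5 CPM in cKO, with overlapping groups and a log2 fold change of 0.06 ± 0.06 (edgeR adjusted p = 0.463). Mettl3 overlaps Tox4 on the other strand. Among the 8 genes of the writer complex, Zc3h13, which anchors the complex in the nucleus, fell from 375.6 and 363.4 CPM to 180.7 and 188.4 CPM, and Cbll1 fell by 0.90 ± 0.08 on the log2 scale. Virma, Rbm15b and Wtap were each called higher, by 0.20, 0.17 and 0.11, but 2 of these calls depended on the processing. The call of Rbm15b was lost with DESeq2 (adjusted p = 0.0779), without the low-count filter (edgeR adjusted p = 0.193) and without control replicate 1 (0.0634). The call of Wtap was lost with DESeq2 (adjusted p = 0.138), without the filter (edgeR adjusted p = 0.676), with all 8 libraries (0.146) and without control replicate 2, cKO replicate 1 or cKO replicate 2 (0.506, 0.0529 and 0.0707). Among all genes tested 25.5% were called lower, and 44.9% and 59.8% in the 2 eighths of highest abundance. Of 14 m6A readers and erasers, 10 were called lower (71.4%) and 1 higher. Among the lower were the nuclear reader Ythdc1 at 230.2 and 226.4 CPM against 134.4 and 136.1 CPM (-0.75 ± 0.03) and the demethylase Alkbh5 at 64.1 and 68.1 CPM against 42.0 and 44.9 CPM (-0.60 ± 0.05).

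Total counts were 18751234 and 18982929 in control and 18618885 and 20086128 in cKO, and the number of genes with at least 1 count was 31803 and 32268 in control against 36422 and 37195 in cKO. Of 18121 genes that passed a low-count filter, 8948 were called at an adjusted p under 0.05, which is 49.4% of those tested: 4319 were higher in cKO (23.8%) and 4629 lower (25.5%). At least 2-fold, 934 were higher (5.15%) and 352 lower (1.94%). The 2-fold count of higher genes was 493 with DESeq2 and 461 with genes under an average log2 CPM of 1 left out, where that of lower genes was 197. Without the filter on low counts the calls were split 3405 higher and 5321 lower, and with upper-quartile scaling 4965 higher and 4120 lower. The median log2 fold change over all genes tested was 0.01. Less abundant genes leaned upward: the eighth of tested genes with the fewest counts had a median of 0.28 and the eighth with the most a median of -0.15. In bulk libraries a change in the number of cells of a type and a change in RNA per cell cannot be told apart.

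The abundant coding genes with the largest rises had varied roles, with 1 or a few genes for each. Genes named for the largest rises and falls were taken only from those without overlap between the groups. Gpnmb, a lysosomal and cell-surface glycoprotein, was at 15.3 and 16.7 CPM in control and 70.8 and 73.1 CPM in cKO. Cspg4, a transmembrane proteoglycan, went from 4.26 and 5.12 CPM to 18.1 and 17.2 CPM. Lefty1, a secreted antagonist of Nodal, went from 7.33 and 6.91 CPM to 24.8 and 24.4 CPM. In these 3 genes the cKO libraries lay far above both controls, with log2 fold changes of 2.17 ± 0.07, 1.91 ± 0.12 and 1.79 ± 0.10 (edgeR adjusted p = 2.69e-56, 1.24e-27 and 1.30e-31). Fads3, a fatty acid desaturase, rose by 1.59 ± 0.11 on the log2 scale. The other high genes were Kif1a (1.75), a neuronal kinesin, Plaur (1.68), the urokinase receptor, and the matrix or secreted genes Adamtsl3 (1.73), Ccn5 (1.71), Ltbp2 (1.67), Mxra8 (1.61), Fbln2 (1.60) and Angptl2 (1.60), where the number is the log2 fold change. Ccdc107 had the highest value, 2.67 ± 0.08, but overlaps Rmrp, a noncoding RNA on the opposite strand that is counted at 0 in every library, so its reads cannot be assigned with certainty.

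The largest falls were of another kind. Npm1, the nucleolar histone chaperone nucleophosmin, was at 2893 and 2821 CPM in control and 873.7 and 875.8 CPM in cKO. Eif5b, the GTPase that joins the ribosomal subunits, went from 594.1 and 575.7 CPM to 187.2 and 181.6 CPM. Sox2, a core pluripotency factor, went from 76.6 and 78.3 CPM to 20.9 and 20.4 CPM. The cKO libraries lay far below both controls in each, with log2 fold changes of -1.71 ± 0.02 for Npm1, -1.67 ± 0.02 for Eif5b and -1.91 ± 0.06 for Sox2 (edgeR adjusted p = 6.57e-107, 1.30e-88 and 1.03e-54). The acidic histone-binding proteins Anp32a (-1.72) and Anp32b (-1.65), the nucleosome-binding protein Hmgn5 (-1.66) and the splicing regulator Nsrp1 (-1.63) fell as well. So did the CBP and p300 partner Cited2 (-2.14), the H3K27 demethylase Kdm6b (-1.73), the pluripotency-associated zinc finger gene Zfp296 (-2.13), the mitochondrial gene Chchd10 (-1.95), the growth factor gene Vegfb (-1.67) and Tchh (-1.94), which encodes trichohyalin of hair follicles. Lars2, the mitochondrial leucyl-tRNA synthetase, had the lowest value: it went from 632 and 614.7 CPM to 32.6 and 29.7 CPM, a log2 fold change of -4.33 ± 0.03, and it moved with the ribosomal RNA entries described below, whose part in its count was not tested. Sox2 overlaps Sox2ot and Nsrp1 overlaps Mir423 on the same strand, and Zfp296, Chchd10, Eif5b, Tchh and Angptl2 overlap genes on the other strand, so some of their reads may be lost or shared.

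**Figure D1:**
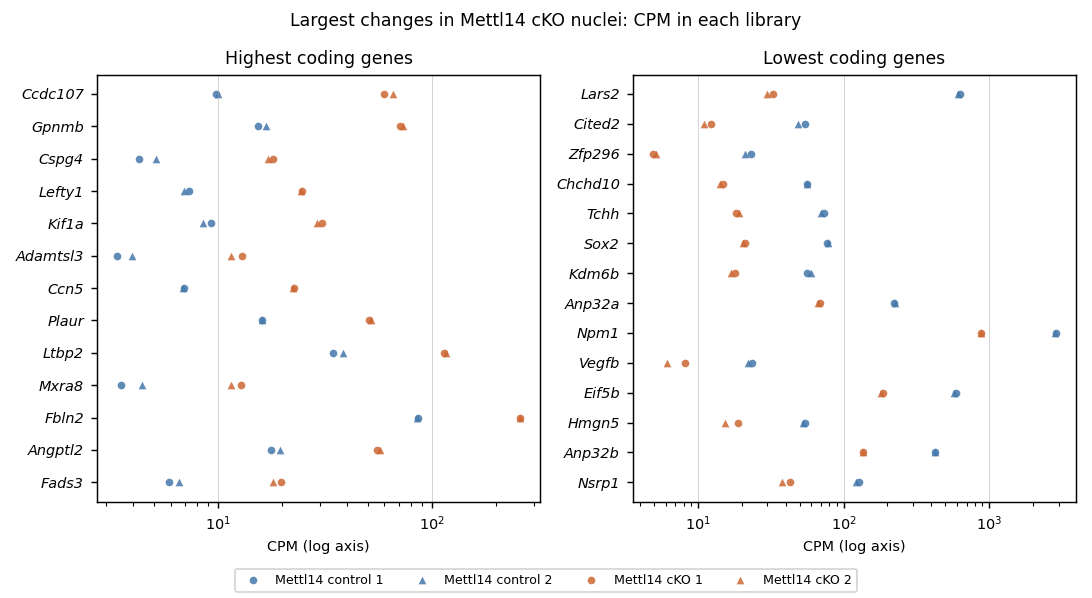
CPM (log axis) of 13 of the 14 highest and of the 14 lowest abundant coding genes in each of the 2 control libraries (blue) and 2 cKO libraries (orange), circles for replicate 1 and triangles for replicate 2. The blue and orange points of every gene are apart, which the choice of genes required, and the replicates of a group lie close together. Of all 8948 called genes, 8922 had no overlap between the groups. With 2 libraries a group a call nearly requires this, so the count is no separate evidence. The share without overlap over all genes tested is not given here.

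Several of the lowest genes encode proteins with long acidic or basic stretches, whose codons are rich in purines. The longest unbroken run of A and G in the coding sequence, with 6 bases on each side, is shown for 1 gene that fell and has a long run (Anp32a), for 2 that fell with only short runs (Sox2, Cited2) and for 2 that rose (Gpnmb, Kif1a). Capitals mark the run. Sequences are from GENCODE M21 transcripts (GRCm38), 1 transcript per gene.
Anp32a: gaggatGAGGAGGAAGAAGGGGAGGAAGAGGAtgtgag
Sox2: gctcatGAAGAAGGAtaagta
Cited2: ccagccAGGGAGGctccct
Gpnmb: cagtgtGGAGGAGGGGAGAcggcag
Kif1a: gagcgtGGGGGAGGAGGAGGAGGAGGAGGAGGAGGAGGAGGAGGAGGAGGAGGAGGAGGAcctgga

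The run is 26 bases long in Anp32a, 9 in Sox2, 7 in Cited2 and 13 in Gpnmb. Kif1a, with 54 bases, rose, so a long run did not mark a fall in each single gene. A run of at least 20 bases was present in 5 of the 14 lowest and in 3 of the 14 highest coding genes. Over the whole coding sequence, purines made up 75.4% of Hmgn5, 66.8% of Nsrp1 and of Anp32b, 66.2% of Tchh, 65.6% of Anp32a, 63.7% of Eif5b and 61.1% of Npm1, but 53.8% of Sox2, 50.8% of Cited2, 48.1% of Kdm6b and 44.9% of Chchd10. Of the 14 lowest coding genes 7 had more than 60% purines, and of the 14 highest 0 did. By eighths of abundant coding genes, 7 of the 14 lowest lay in the eighth with the highest purine share and 3 in that with the lowest. For the 14 highest these numbers were 0 and 4.

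Across the 9063 coding genes whose average log2 CPM was 3 or more, the purine share of the coding sequence and the log2 fold change were inversely related (Spearman's correlation of -0.39 across genes, which share libraries and are not independent replicates). In the eighth of genes with the lowest purine share, 30.3% to 49.1%, 588 of 1133 genes were called higher and 211 lower, and the median log2 fold change was 0.21. In the highest eighth, 57.1% to 79.5%, 87 of 1133 were called higher and 850 lower, and the median was -0.36. The medians of the eighths between fell at every step. In Mettl3 cKO the same eighths had medians of 0.17 and 0.04 and the correlation was -0.22, and the difference between the knockouts was called in 51.4% of genes in the lowest eighth and 76.4% in the highest, with 50.2% to 62.3% in those between. Over all 21782 genes tested for a difference in the 8 libraries, which include many less abundant ones, it was called in 33.2%. The correlation lay between -0.26 and -0.45 within eighths of these genes by abundance. Between replicates of a group it was -0.09 in control and -0.02 in cKO. GC content of the coding sequence moved with the change too, with a correlation of 0.21 in Mettl14 cKO and 0.28 in Mettl3 cKO, and its part in the purine relation was not tested.

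Genes with long purine runs followed the same order. Of the 235 genes with a run of at least 30 bases, 161 were called lower and 33 higher, with a median of -0.31, while the 1132 genes whose longest run is under 10 bases had a median of 0.01. A run of at least 20 bases was present in 34.4% of the 131 genes called lower by at least 2-fold, in 17.7% of all called lower, in 7.60% of those called higher and in 11.8% of all 9063. For the gene groups that follow, a median after subtraction of like purine content is given too: from each gene's log2 fold change, the median of genes with a similar purine share was subtracted. This description was chosen after the data were seen.

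**Figure D2:**
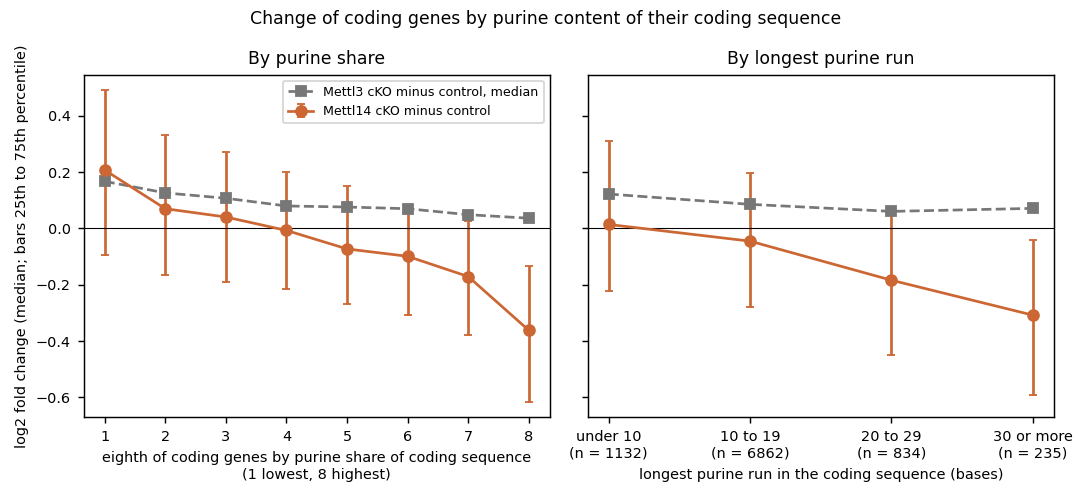
Median log2 fold change of coding genes by eighth of purine share of the coding sequence (left) and by longest purine run (right), orange for Mettl14 cKO with bars from the 25th to the 75th percentile and grey squares for the median in Mettl3 cKO. The orange medians go from 0.21 to -0.36 over the eighths, the grey ones from 0.17 to 0.04.

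Several classes of small noncoding RNA rose. Of 177 small nucleolar RNAs (snoRNAs, guides for modification of ribosomal RNA), 116 were called higher (65.5%, against 23.8% of all genes) and 2 lower, with a median log2 fold change of 0.93. They took 0.264% and 0.289% of counts in control and 0.651% and 0.626% in cKO. Of 168 spliceosomal and related small nuclear RNAs 91 were called higher and 5 lower, of 17 Cajal body RNAs 12 and 1, and of 19 mitochondrial transfer RNAs 14 and 0. MicroRNA genes differed: 28 of 98 were called higher (28.6%) and 7 lower. Their share of counts went from 0.801% and 0.823% in control to 0.189% in each cKO library. Of 26 miscellaneous RNAs 7 were called higher (26.9%) and 1 lower. Snora73b, a snoRNA that acts in ribosomal RNA processing, was at 147.8 and 154.5 CPM in control and 399.2 and 390.4 CPM in cKO (1.38 ± 0.03), with the groups far apart. Scarna2, which guides modification of U2 RNA, went from 31.3 and 33.0 CPM to 101.2 and 100.4 CPM. Among named noncoding genes the highest were mt-Tv at 8.02 and 12.4 CPM against 47.2 and 43.9 CPM, Snord83b at 13.5 and 16.7 CPM against 56.3 and 53.5 CPM, and Snord110 and mt-Tm, each with a log2 fold change of 1.73. Snord83b and Snord110 lie within Rpl3 and Nop56, and reads of host introns are not separated from the mature RNA. Of noncoding host genes of snoRNAs, 13 of 18 were called higher and 1 lower, with a median of 0.34 (Snhg12 0.68, Gas5 0.32). Structural nuclear RNAs rose in part: 15 of 26 were called higher and 5 lower. Among these Rn7sk, the scaffold that holds P-TEFb inactive, rose from 2994 and 3006 CPM to 4693 and 4747 CPM, and Neat1, the scaffold of paraspeckles, from 893 and 907.6 CPM to 1955 and 1918 CPM. Malat1, a nuclear speckle RNA, rose by 0.49 ± 0.01.

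Ribosomal RNA left after depletion went the other way. Of 28 annotated rRNA genes, mostly copies of 5S, 20 were called lower and 1 higher, with a median of -4.83, and n-R5s194 went from 242.7 and 269.4 CPM to 3.87 and 4.24 CPM. The copies n-R5s156 (-5.10) and n-R5s56 (-5.03) and Mir6236 (-4.21) fell by similar amounts, and near-identical copies cannot be told apart. The mitochondrial ribosomal RNAs mt-Rnr1 and mt-Rnr2 fell by 2.45 and 1.27 on the log2 scale and together took 2.13% of counts in each control library and 0.766% and 0.764% in the cKO libraries. Gm42418 went from 25960 and 24010 CPM to 4564 and 4535 CPM, and Gm23935 fell by 2.70. The call of Gm42418 was lost with limma-voom (adjusted p = 0.479) and with limma-voom after cyclic loess scaling (adjusted p = 0.899). That of Mir6236 was lost when either cKO library was left out, at log2 fold changes of -4.23 and -4.19. Residual rRNA thus differed between the groups, and its part in the small RNA and gene counts was not tested.

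**Figure D3:**
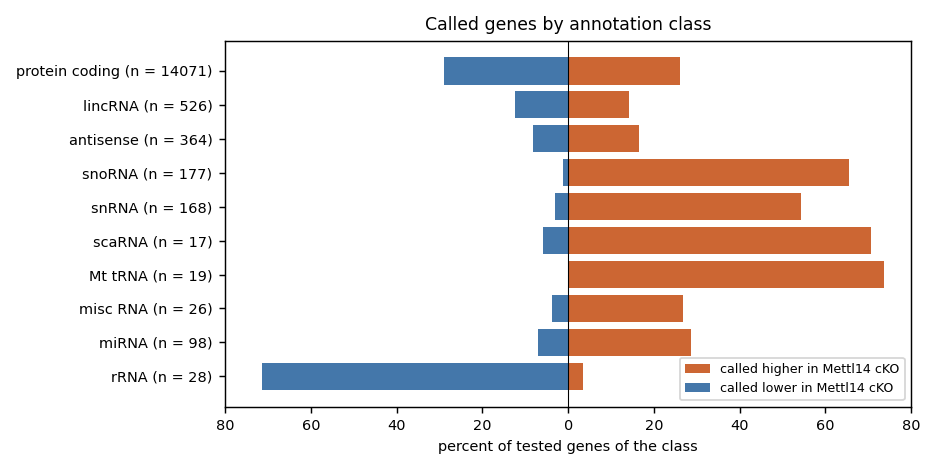
Percent of tested genes of each annotation class that were called higher (orange, right) or lower (blue, left) in Mettl14 cKO, with the number tested in brackets. snoRNA, snRNA, scaRNA and mitochondrial tRNA bars lie almost wholly to the right, and the rRNA bar lies to the left.

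Lysosomal genes rose as a group. Of 43 tested, 38 were called higher (88.4%, against 23.8% of all genes) and 3 lower, with a median log2 fold change of 0.70, or 0.50 after subtraction of like purine content. In Mettl3 cKO 27 were called higher with a median of 0.20, where the share over all genes is not given here. The difference between the knockouts was called upward in 32 and downward in 3. Among proteases, Ctsl (cathepsin L) was at 217.6 and 227 CPM in control and 624.4 and 599.8 CPM in cKO (1.46 ± 0.02), and Ctsd (cathepsin D) went from 97.9 and 95.6 CPM to 256.5 and 258.8 CPM (1.41 ± 0.03). Ctsb rose by 1.00. For both cathepsins named with their libraries the groups were far apart. Among glycolipid and glycan hydrolases, Hexa (hexosaminidase A) went from 58.7 and 66.6 CPM to 173 and 171.2 CPM (1.46 ± 0.04), Neu1 (neuraminidase) rose by 0.90 and Psap (prosaposin, the precursor of activators of such enzymes) by 0.94. Among membrane proteins, Lamp1 went from 541.5 and 538.3 CPM to 941.1 and 944 CPM (0.80 ± 0.02), the calcium channel Mcoln1 rose by 0.69, Lamp2 by 0.42 and the proton pump subunit Atp6v1a by 0.37. The transcription factors known to drive lysosomal genes were not called higher. Tfeb was at 15.63 and 14.82 CPM against 14.05 and 16.44 CPM, with overlapping groups (0.01 ± 0.10, edgeR adjusted p = 0.97), Tfe3 was lower by 0.24 ± 0.08, a call lost with DESeq2 (adjusted p = 0.147) and without control replicate 2 or cKO replicate 2 (edgeR adjusted p = 0.165 and 0.154), and Mitf fell from 23.7 and 23.8 CPM to 13.9 and 11.7 CPM (-0.89 ± 0.09). Grn (progranulin) was the other member called lower, at 95.0 and 97.4 CPM against 59.1 and 54.8 CPM.

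Factors of the TFEB family bind the CLEAR element, a motif built on TCACGTG. Stretches of the promoters of 5 lysosomal genes that rose and hold this core follow, each upstream of the start with 1 match in capitals, read along the gene's strand (RefSeq, GRCm38.p6).
Lamp1 (chr8:13159075-13159129, plus strand): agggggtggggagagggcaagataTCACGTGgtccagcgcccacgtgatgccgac
Ctsd (chr7:142387896-142387950, minus strand): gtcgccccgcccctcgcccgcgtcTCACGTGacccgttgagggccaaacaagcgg
Mcoln1 (chr8:3500423-3500477, plus strand): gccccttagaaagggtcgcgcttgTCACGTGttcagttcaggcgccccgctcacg
Naglu (chr11:101069996-101070050, plus strand): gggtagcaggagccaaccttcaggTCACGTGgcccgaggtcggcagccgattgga
Glb1 (chr9:114401005-114401059, plus strand): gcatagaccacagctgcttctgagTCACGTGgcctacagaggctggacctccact

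The core TCACGTG, searched on both strands from 250 bases before to 50 after each start, was present in 12 of the 35 lysosomal genes with a promoter in the table (34.3%), in 6.72% of 11619 tested genes with one and in 3.77% of all 32851 promoters. Among pluripotency factors it was present in 0 of 18. A match describes these letters only. Lamp1, Ctsd and Mcoln1 are described above, Naglu rose from 1.88 and 1.89 CPM to 3.31 and 3.58 CPM, and Glb1, which shares its strand with Tmppe, rose by 0.74 ± 0.06.

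**Figure D4:**
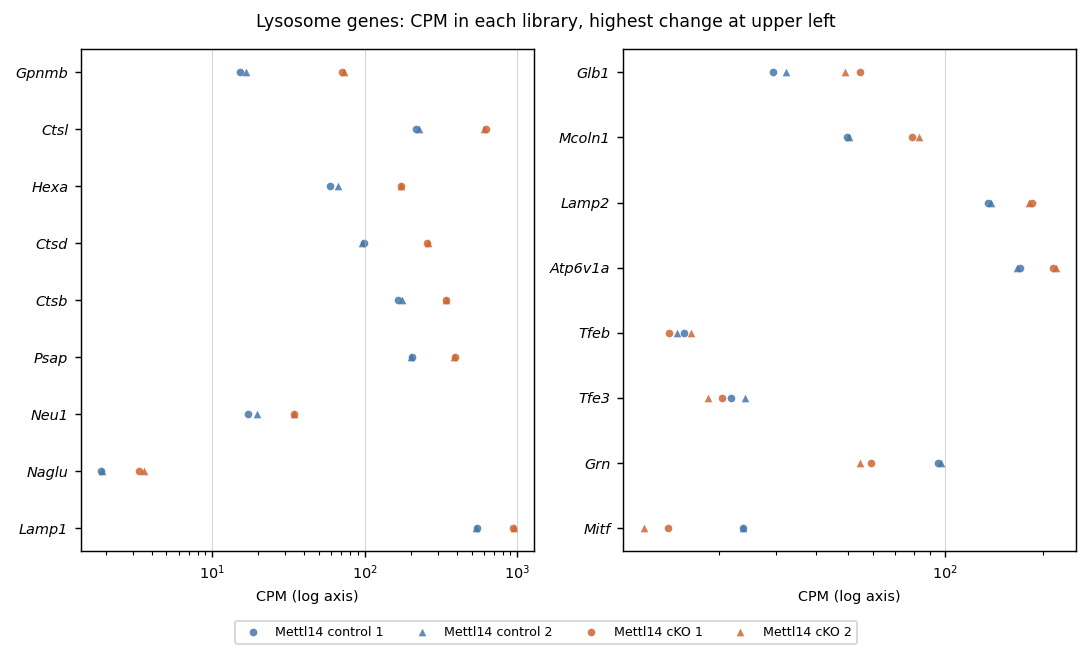
CPM (log axis) of the 17 lysosome genes named in the text, of 43 tested, in order of log2 fold change from upper left to lower right, blue for the 2 control and orange for the 2 cKO libraries. The orange points lie to the right for 13 genes, overlap the blue ones for Tfeb and lie to the left for Tfe3, Grn and Mitf.

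Sterol and fatty acid genes rose in both knockouts. Over all genes tested 23.8% were called higher in Mettl14 cKO. All 21 cholesterol synthesis genes were called higher there (median 0.91, 0.84 after subtraction of like purine content). In Mettl3 cKO 20 were called higher (median 0.73), where the share over all genes is not given here. The difference between the knockouts was called upward for 7 of the 21 and downward for 1. Among late enzymes for which it was not called, for Msmo1 the change was 1.11 here and 1.03 in Mettl3 cKO, and for Sc5d 0.88 and 0.85, with differences in the fit of all 8 libraries of 0.05 ± 0.04 and -0.01 ± 0.07 (edgeR adjusted p = 0.453 and 0.935). Among regulators, Insig1, a sterol-sensing retention factor, rose by 1.31 ± 0.04 and Srebf1, a regulator of lipid synthesis, by 1.01 ± 0.05. Of 19 genes of fatty acid synthesis and desaturation 14 were called higher and 1 lower: Fasn, fatty acid synthase, went from 493 and 487 CPM to 945 and 938 CPM, and Acacb, the mitochondrial acetyl-CoA carboxylase, went from 59.7 and 64.2 CPM to 25.9 and 27.2 CPM. Apoe, an apolipoprotein, rose from 2123 and 2083 CPM to 3749 and 3715 CPM. It belongs to the LXR target and cholesterol efflux genes, of which 5 of 12 were called higher and 2 lower (median 0.18). In the secretory pathway 19 of 27 genes were called higher and 3 lower, with a median of 0.23; P4hb, a protein disulfide isomerase, rose by 0.75 and Sec61a1, the translocon channel, by 0.84, while Hsp90b1 fell by 0.29, a call lost after cyclic loess scaling with limma-voom (-0.01, adjusted p = 0.263).

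Genes of the extracellular matrix and of adhesion rose together. Of 37 genes of fibrillar collagens and elastic matrix 33 were called higher (89.2%, against 23.8% of all genes) and 1 lower. Their median was 0.87 (0.86 after subtraction of like purine content, 0.11 in Mettl3 cKO). Col1a2, a chain of type I collagen, was at 163.5 and 163.8 CPM in control and 492.1 and 484.1 CPM in cKO. Thbs1 (thrombospondin) went from 939.4 and 946.4 CPM to 2094 and 2101 CPM (1.15 ± 0.02). The groups were far apart in both. Col1a1, the partner chain of Col1a2, rose far less, by 0.36 ± 0.03, and its change did not differ from that in Mettl3 cKO beyond the threshold (0.04, edgeR adjusted p = 0.391). Lox, a collagen crosslinking enzyme, went from 118.0 and 123.5 CPM to 294.1 and 294.6 CPM, and Serpinh1, the collagen chaperone, rose by 0.87. Of 21 basement membrane genes 18 were called higher and 2 lower (Col4a1 1.09, Lama5 0.60, Nid1 -0.41). Of 28 genes of integrins and focal adhesions 22 were called higher and 0 lower, with a median of 0.54, among them Itgb1 (0.62) and Flna (0.73). Contractile cytoskeleton genes were divided, with 10 of 27 called higher and 9 lower: Tagln rose by 1.13 and Vim by 0.45, while Myh10 and Cald1 fell by 0.48 and 0.35.

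Markers of other cells that a culture could hold moved beside these groups. For comparison, 23.8% of all genes tested were called higher and 25.5% lower. Of 22 fibroblast or feeder markers tested, many of them matrix genes counted above, 17 were called higher and 0 lower, and their summed level was 1115 and 1098 CPM in control and 2451 and 2455 CPM in cKO. Those that do not encode matrix proteins include Pdgfrb (17.9 and 19.5 CPM against 41.2 and 41.3 CPM) and Acta2 (68.1 and 73.6 CPM against 110.5 and 109.9 CPM), while Twist1 was at 5.57 and 6.02 CPM against 4.68 and 4.57 CPM. Lum, Fap and Tcf21, of the same list, had at most 8 counts in any library. Primitive and parietal endoderm markers were called higher for 8 of 16 and lower for 1, and their summed level was 1153 and 1161 CPM in control and 1841 and 1809 CPM in cKO. There Sparc, Col4a1 and Col4a2 rose, while Gata6 was at 1.88 and 2.45 CPM against 2.95 and 2.54 CPM, and of the 5 markers too low to test Ttr, Afp and Apoa1 had at most 4 counts, Foxa2 had 5 and 3 counts against 8 and 5, and Amn had 0 and 0 against 13 and 9. Trophoblast markers were called higher for 0 of 10 and lower for 3, and mesoderm markers for 1 and 1 of 8. Blood and endothelial markers were called higher for 4 of 8 and lower for 0, with a median of 0.55 and a summed level of 104.0 and 97.8 CPM in control against 121.2 and 123.6 CPM in cKO. Among markers too low to test, the erythroid gene Hba-a1 and the mesoderm gene Msgn1 were at 0 in all 4 libraries. The part of a few other cells in the matrix result was not tested.

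Signalling genes showed a mixed picture, set beside 23.8% of all genes called higher and 25.5% called lower. In the TGF-beta and BMP pathway 25 of 42 genes were called higher and 4 lower, with a median of 0.32: the ligand Nodal went from 38.0 and 41.8 CPM to 76.8 and 71.3 CPM (0.89 ± 0.05), the antagonist Lefty2 rose by 0.58, the receptor Tgfbr2 by 0.96, and the shared effector Smad4 fell by 0.52. In the Wnt pathway 19 of 40 were called higher and 9 lower. Ligands and receptors were among the higher genes (Wnt9a 1.42, Wnt5a 1.11, Fzd2 0.92), and nuclear effectors and a common target among the lower ones: Tcf7l1, the repressor TCF3, went from 34.7 and 36.4 CPM to 12.8 and 15.3 CPM, Tcf7l2 fell by 0.80, Lef1 by 0.79 and Axin2 by 0.52. The LIF pathway had 9 of 20 called higher and 3 lower, with the receptor Lifr lower by 0.42 and Stat3 higher by 0.29. Of 29 p53 targets 16 were called higher and 2 lower; Cdkn1a, the inhibitor p21, went from 50.8 and 50.9 CPM to 71.5 and 74.9 CPM.

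Most pluripotency factors fell. Of 30 tested, 23 were called lower (76.7%) and 3 higher. Their median was -0.36, and -0.38 after subtraction of like purine content. For comparison, 25.5% of all genes were called lower, and 44.9% and 59.8% in the 2 most abundant eighths. Pou5f1, which encodes OCT4, was at 506.9 and 486.2 CPM in control and 220.1 and 218.4 CPM in cKO. Klf4 went from 166.3 and 175.5 CPM to 66.1 and 62.6 CPM, and Klf5 from 148.2 and 156.4 CPM to 77.5 and 77.3 CPM. The groups were far apart for each. Nanog was lower by 0.39 ± 0.03, as it was in Mettl3 cKO (-0.36), and that difference was not called (edgeR adjusted p = 0.3785), whereas Pou5f1 was higher by 0.39 in Mettl3 cKO and the difference of -1.61 was called (edgeR adjusted p = 1.22e-61). Sall4 did not pass the test (-0.03 ± 0.03, edgeR adjusted p = 0.475), but was called lower without the low-count filter (edgeR adjusted p = 0.00226) and without cKO replicate 2 (0.0458), and higher after cyclic loess scaling with limma-voom (adjusted p = 1.74e-05), and Gdf3, a TGF-beta family ligand, rose by 0.51. Of 12 neuroectoderm markers 6 were called lower and 3 higher, with Zic2 lower by 0.85 and Map2 higher by 0.78.

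Many transcripts of chromatin regulators were called lower, to degrees that varied by family. Over all genes tested the share called lower was 25.5%, and in the 2 most abundant eighths it was 44.9% and 59.8%. In Polycomb repressive complex 2, 9 of 12 were called lower and 1 higher (median -0.39): the methyltransferase Ezh2 went from 189.9 and 179.7 CPM to 97.2 and 96.1 CPM (-0.94 ± 0.03), the scaffold Suz12 fell by 0.41, Eed by 0.39 and the accessory gene Epop by 0.96. Among remodelers of the SWI/SNF, NuRD and related families 37 of 45 were called lower and 2 higher (median -0.35): Smarcc1 went from 653 and 646 CPM to 374 and 380 CPM, Smarca4, the BRG1 ATPase, fell by 0.62, Arid1a by 0.69 and Chd4 by 0.35. Bromodomain and acetyltransferase genes were called lower in 14 of 20 and higher in 0, among them Cited2 described above, with Ep300 at 0.15 below control, which was 0.02 above it after cyclic loess scaling. The H3K4 methyltransferase group had 11 of 17 lower (Kmt2d -0.73, Kmt2b -0.70), H3K9 methyltransferases and HP1 proteins 14 of 19 (Trim28 -0.39), DNA methyltransferases and TET enzymes 10 of 16 (Tet2 -0.62, Dnmt3b -0.52), and histone demethylases 10 of 20 (Kdm1a and Kdm5b, each -0.94). Cohesin, condensin and CTCF genes were lower in 18 of 21: Smc3 went from 522.4 and 493 CPM to 225.4 and 222.7 CPM, Rad21 fell by 0.81 and Ctcf by 0.52. In the H3K4, DNA methyltransferase and TET, and demethylase groups 64.7%, 62.5% and 50.0% were lower. These shares lay near or below the 59.8% of the most abundant eighth, whose median was -0.15. The medians were -0.08 for demethylases and -0.20 for DNA methyltransferases and TET enzymes, and -0.07 and -0.14 after subtraction of like purine content. For the other groups subtraction brought the medians to -0.27 for Polycomb repressive complex 2, -0.21 for remodelers, -0.24 for the bromodomain and acetyltransferase group, -0.22 for the H3K4 group, -0.24 for the H3K9 group and -0.17 for cohesin and condensin. In Mettl3 cKO the medians of these 6 groups lay between -0.04 and 0.14. Lamin genes moved apart: Lmnb1 fell from 799.5 and 786.8 CPM to 381.1 and 378.6 CPM, and Lmna rose from 56.5 and 56.9 CPM to 104.3 and 110.3 CPM.

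RNA processing, translation and cell division genes fell as well. The share called lower was 25.5% over all genes, and 44.9% and 59.8% in the 2 most abundant eighths. All 24 hnRNP genes, which coat nascent RNA, were called lower (median -0.44, -0.22 after subtraction of like purine content); Hnrnpd went from 333.9 and 331.7 CPM to 157 and 163.3 CPM and Pcbp1 fell by 1.31. Of 33 core spliceosome genes 27 were called lower and 2 higher, Prpf8 being higher by 0.24 and Sf3b2 lower by 0.73. In ribosome biogenesis 28 of 41 were called lower and 8 higher, with Ncl (nucleolin) at 4802 and 4713 CPM against 2508 and 2431 CPM. Translation initiation factors were lower in 29 of 34 and higher in 1 (median -0.30, -0.21 after subtraction): Eif3a, with 61.4% purines, fell by 0.98, and Eif3f, with 48.0%, went from a mean of 50.0 ± 0.92 to 20.3 ± 1.40 CPM (SD, n = 2). Heat shock proteins and chaperones were lower in 21 of 27, and Hsp90ab1 fell by 0.81. Mitosis genes were lower in 39 of 45 (median -0.39, -0.29 after subtraction), among them Incenp, of the chromosomal passenger complex, at 293 and 278.6 CPM against 102.6 and 101.8 CPM, and Mki67 at 803 and 783.3 CPM against 427.5 and 417.1 CPM. Replication genes were lower in 34 of 45 (median -0.24 both before and after subtraction), with Cdt1, the licensing factor, lower by 0.98 and Mcm6 by 0.57. Subunits of the respiratory chain were less uniform, with 36 of 75 called lower (48.0%) and 17 higher (median -0.10).

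Over the 47 gene lists with a coding sequence for at least 80% of members, cell type markers left out, 24 had a median of -0.10 or lower and 16 a median of 0.10 or higher. After subtraction of like purine content all 24 medians that were low stayed below 0, and 20 of them lay nearer to 0, while all 16 high medians stayed above 0.

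**Figure D5:**
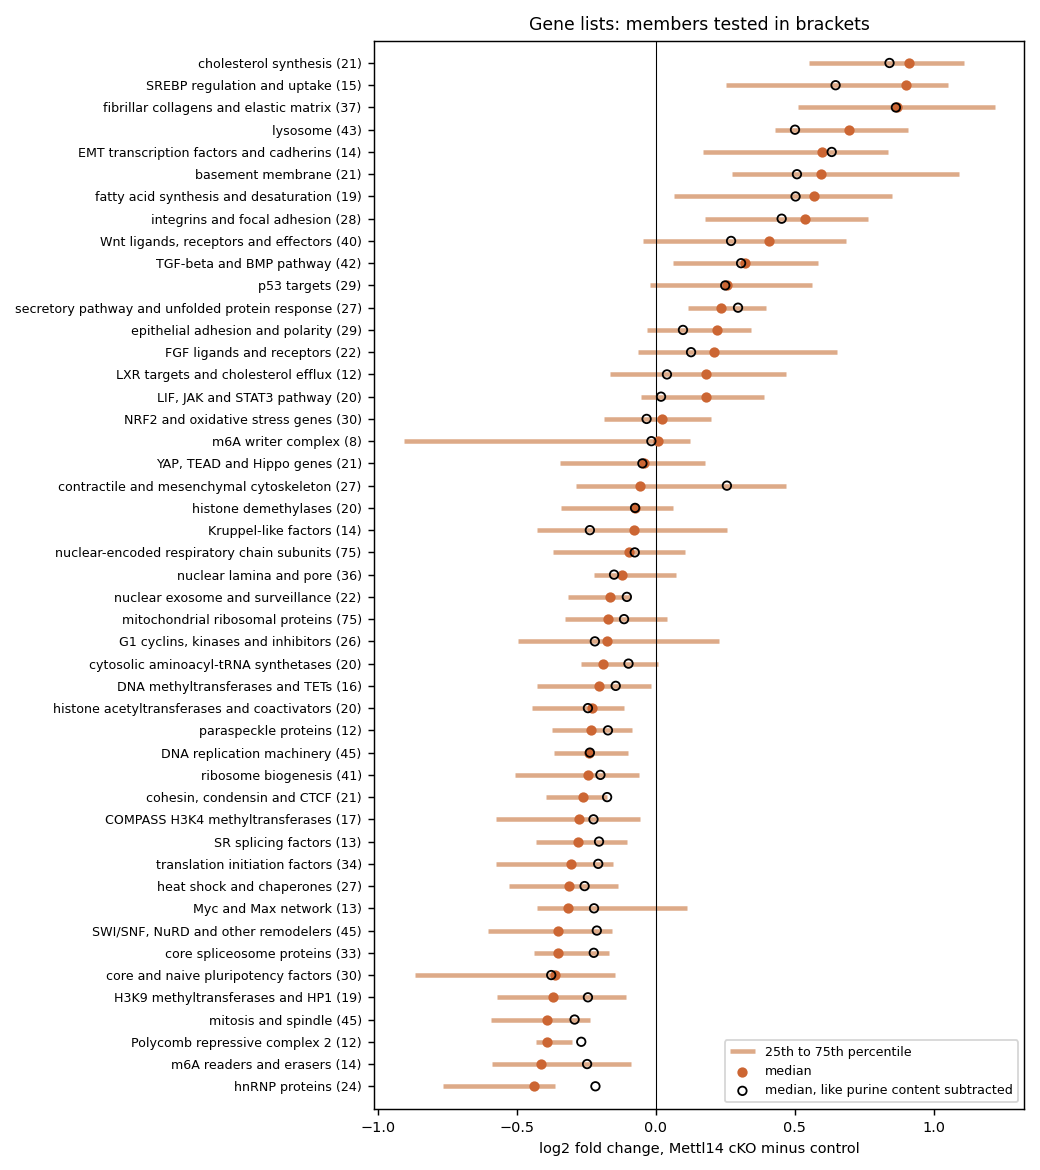
Log2 fold change of gene lists in Mettl14 cKO against control: filled circles for the median of tested members, bars from the 25th to the 75th percentile, open circles for the median after subtraction of like purine content. Lists of cholesterol and fatty acid synthesis, SREBP regulation, fibrillar matrix, basement membrane and lysosome lie at the upper right. LXR targets (0.18) and the contractile cytoskeleton (-0.06) lie nearer the middle. The hnRNP proteins, at -0.44 filled and -0.22 open, lie at the lower left.

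The Mettl14 change was set against the Mettl3 change directly. The difference was called for 7238 of 21782 genes, the 33.2% given above, and for 33 of the 38 genes named by rule. Of genes called in the Mettl14 contrast, 1954 were called in the same direction in Mettl3 cKO and 1068 in the opposite one. Pom121, a nuclear pore gene, and Pcbp1 are among the latter: Pom121 went from 83.6 and 80.4 CPM to 33.6 and 35.1 CPM here (-1.25 ± 0.05) and was higher by 0.44 in Mettl3 cKO. Among genes described above, Ncl, Ctsb, Lamp1, Grn, Pcbp1, Ezh2, Smarcc1 and Pom121 overlap other annotated genes, so some of their reads may be lost or shared.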

How the data were processed

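Raw counts of reads per gene were deposited by the authors, 1 table of 54446 genes per library. The tools named, per the submitters' processing notes, are CASAVA, HISAT2 2.1.0, HTSeq and Trimmomatic 0.38, with the build mm10; annotation release, strand setting and treatment of reads with several matches were not given in the sources used here. IDs were matched to GENCODE M21 for 54409 genes and not for 37. Genes were kept with filterByExpr at a minimum count of 10. edgeR 4.0.16 in R 4.3.3 was run with TMM scaling, robust glmQLFit and glmQLFTest on the 4 libraries (2 residual degrees of freedom, common dispersion 0.000275), and on 8 libraries for the difference from Mettl3 cKO; p-values were Benjamini-Hochberg adjusted over all genes tested and called under 0.05. Log2 CPM of replicates correlated at 0.9968 in control and 0.9971 in cKO, and the differences between their counts exceeded sampling noise (chi-square per degree of freedom 1.56 and 1.43), so none was treated as a copy. Each edgeR SE is the size of the log2 fold change divided by the square root of the test's F value. Purine content is that of the coding sequence of 1 GENCODE transcript per gene, and like content is 1 of 20 bins.

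Named genes were Mettl14 and Mettl3, the 14 highest and 14 lowest called coding genes of average log2 CPM 3 or more with no overlap between groups, 4 and 4 noncoding genes, predicted names left out, and members of 55 gene lists, first those with the smallest p. The members, lists and tests were chosen with earlier results of these data known. Gm42418, Gm23935, mt-Rnr1, mt-Rnr2, Snora73b and Scarna2 were named after their values were seen. Alternatives were other scalings and filters, DESeq2 1.42.0, limma 3.58.1 (voom), all 8 libraries, a replicate block and each library left out. Some items are not reported here.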

Additional observations from a re-analysis of the deposited data

Results flagged for a closer look

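The change in Mettl14 cKO differed from that in Mettl3 cKO (edgeR's test of the difference in all 8 libraries, Benjamini-Hochberg adjusted p under 0.05) for the following genes named by rule, given as the Mettl14 log2 fold change minus the Mettl3 one. The targeted genes differed as their labels say, Mettl14 by -1.0 and Mettl3 by 0.97. Among genes that rose, the difference was 2.00 for Ccdc107, 1.57 for Gpnmb, 1.35 for Cspg4, 1.09 for Lefty1, 0.94 for Kif1a, 1.40 for Adamtsl3, 1.27 for Ccn5, 1.41 for Plaur, 1.32 for Ltbp2, 1.35 for Mxra8, 1.22 for Fbln2, 1.32 for Angptl2, 1.07 for Fads3 and 1.07 for mt-Tm. Each of these coding genes was also called higher in Mettl3 cKO, by less, such as Kif1a by 0.78, Ccdc107 by 0.63 and Mxra8 by 0.22. The rise of mt-Tm was not called there.

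Among genes that fell, the difference was -4.54 for Lars2, -2.84 for Cited2, -2.36 for Zfp296, -2.09 for Chchd10, -1.60 for Tchh, -1.97 for Sox2, -2.19 for Kdm6b, -1.49 for Anp32a, -2.05 for Npm1, -2.11 for Vegfb, -1.83 for Eif5b, -1.08 for Hmgn5, -1.72 for Anp32b and -1.68 for Nsrp1. For noncoding genes it was -7.46 for n-R5s194, -8.20 for n-R5s56 and -5.40 for Mir6236. In 7 of the 33, the change in Mettl3 cKO was called with the opposite sign. These are Lars2, Cited2, Kdm6b, Npm1, Vegfb, Eif5b and the target Mettl3 itself, whose change in Mettl14 cKO was not called. These genes were chosen for their size in the Mettl14 contrast, which favours a difference from any other contrast.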

How the results depend on the processing

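With DESeq2, 5965 genes were called, 2581 of them higher, 493 of these at least 2-fold, and the difference between the knockouts was called for 4575. With genes under an average log2 CPM of 1 left out, 461 were called higher and 197 lower at least 2-fold. Leaving out each library in turn gave 7556 to 7793 calls; these fits set 1 library against 2 and assume that the lone one varies like the other group. The replicate numbers share only a number (their deviations correlated at -0.034), and with a replicate block 8837 genes were called. The correlation of purine content with the change was -0.35 after cyclic loess and -0.38 to -0.39 in all other settings. All 46 lists with a median of at least 0.1 in size kept their sign in every setting run, but the size was less stable: in 250 combinations of list and setting, over 51 of 55 lists, the median moved by more than the spread between replicates, and the count of members called moved by over 1.5 times in at least 1 setting for 27 lists (higher) and 12 (lower). With 2 libraries a group, genes with few counts limit the counts at 2-fold.

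Among named genes, Tfeb, Mettl3, Sall4 and Ep300 lay near 0 and changed sign in some settings. Tfeb was at -0.000549 with RLE scaling, -0.0707 without the low-count filter, -0.00276 with DESeq2, -0.018 after cyclic loess and -0.0338 with all 8 libraries, and between -0.127 and 0.101 with 1 library left out. Mettl3 was at -0.0162 without the low-count filter and between -0.0189 and 0.108 with 1 library left out. Sall4 was at 0.0193 with upper-quartile scaling, 0.00835 with genes of average log2 CPM under 1 left out, 0.131 after cyclic loess and between -0.0832 and 0.0066 with 1 library left out. Ep300 was at 0.0158 after cyclic loess. The cause was not tested.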

Other observations

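Imprinted noncoding RNAs of the Dlk1-Dio3 region moved apart. Meg3, the maternally expressed RNA at the start of the region, was at 330.4 and 327.7 CPM in control and 256.1 and 241.3 CPM in cKO, and Mirg, a microRNA host RNA of the same region, rose from 59.3 and 60.6 CPM to 112.1 and 115 CPM. The log2 fold changes were -0.40 and 0.92, and neither pair of groups overlapped. Rian, which hosts snoRNAs there, rose by 0.35. H19, an imprinted RNA of another region, went from 45.5 and 44.7 CPM to 25 and 26.6 CPM. These genes were chosen after their values were seen.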
